A study of Mus musculus with 2 samples.

Results

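The 38 genes described here are DNA replication genes: the factors that license and open replication origins, copy the DNA, supply nucleotides and histones, and guard the replication fork. They were chosen by symbol, not by their values. All 38 of the 38 symbols were found, each once, among the 32285 genes of both libraries. The data are single-cell RNA counts of mouse carotid artery taken 18 h after a temporary ligation that injures the endothelium. The control library is CDH5 Cre- Cx43fl/fl and the other library, labelled as the endothelial connexin 43 knockout, is CDH5 Cre+ Cx43fl/fl. Animals of both groups carried the floxed Cx43 (Gja1) alleles and both had the ligation injury. Cre was driven by Cdh5, an endothelial gene, and is described as inducible. Each library is a single pool of arteries, of up to 5 samples of a condition combined at a time. The ages and the number of animals are not given in the sources used here. The arteries were opened lengthwise and digested briefly as whole vessels to favour endothelial cells, so the share of a cell type is set in part by what came off the wall. Each condition therefore has 1 library, cells are not replicates of a condition, and no test between the libraries was possible. The intervals below are exact Poisson or binomial 95% intervals and cover counting error only.

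A cell that leaves rest and prepares to divide first makes the proteins of the replication machinery under E2F transcription factors, late in G1, and keeps them through S phase. The MCM helicase is loaded on origins together with Cdc6, is switched on by Cdc45 and the GINS complex, and is followed by polymerase alpha with its primase, by the sliding clamp Pcna and by Fen1. Mitosis genes such as Top2a and Mki67 are made later, in G2 and M, so the 2 groups of transcripts tell early from late phases of the cycle. In a resting artery few cells divide, and endothelium, smooth muscle and adventitial fibroblasts can each re-enter the cycle after injury.

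The promoters of the members carry the E2F motif more often than promoters in general, and a few are shown for members that recur below. Promoters were RefSeq windows of 300 bases (250 before and 50 after the start, GRCm38.p6), of which 29 of the 38 members had one. The 3 forms of the motif that were searched on both strands were TTTCGCGC, TTTGGCGC and TTTCCCGC. At least 1 form was present in 12 of 29 members (41.4%) and in 12 of 39 other replication genes (30.8%). The same held for 1 of 30 mitosis genes (3.33%) and for 573 of all 27025 genes with a promoter (2.12%). A match describes these letters and is not evidence of binding. In the following 30-base windows, written 5′ to 3′ on the gene's strand, the capitals mark the motif, which reads in reverse complement where it begins GCG.
Mcm5, chr8:75109345-75109374, plus strand: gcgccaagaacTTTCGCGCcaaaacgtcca
Mcm6, chr1:128359734-128359763, minus strand: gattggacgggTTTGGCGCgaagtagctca
Mcm7, chr5:138172030-138172059, minus strand: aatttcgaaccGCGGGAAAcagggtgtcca
Cdc6, chr11:98908002-98908031, plus strand: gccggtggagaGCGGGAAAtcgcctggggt
Uhrf1, chr17:56304117-56304146, plus strand: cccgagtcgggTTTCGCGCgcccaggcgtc
Hells, chr19:38930917-38930946, plus strand: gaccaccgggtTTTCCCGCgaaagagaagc
In Mcm5 the TTTCGCGC shares 4 bases with a TTTGGCGC on the opposite strand, and in Mcm6 a further TTTGGCGC lies at chr1:128359797-128359826. The motif began 153 bases before the start in Mcm5, 47 and 110 bases before it in Mcm6, 185 before it in Uhrf1, 138 before it in Cdc6 and 62 before it in Hells.

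The control library held 7298 barcodes with 48862850 UMIs (unique molecules) and the knockout-labelled library 8315 with 54392831, with median depths of 4483 and 4590 UMIs per barcode. After filtering, 6376 and 7236 cells were kept, and 17 barcodes occurred in both libraries. Gja1, the targeted gene, was not lower in the endothelial-like cells of the knockout-labelled library: it stood at 22.5 CPM (18.1 to 27.6) in the control library and 35 CPM (29.6 to 41.1) there, from 91 and 147 UMIs. Which part of the gene the Cre removes is not stated in the sources used here, so these 3′ counts may not test the label, and that library is called knockout-labelled throughout. CPM are UMIs per 1000000 UMIs of the cells summed. Cells were grouped into 26 clusters and named from marker lists, with the listed cell cycle genes kept out of the clustering. All 12 fibroblast markers were detected in the fibroblast-like cells (24497 and 22087 CPM summed), against 129 and 125 CPM for endothelial markers. Endothelial-like cells carried all 12 endothelial markers (7585 and 7506 CPM) and smooth muscle-like cells all 12 muscle markers (24610 and 26505 CPM). The smooth muscle-like cells also carried all 12 fibroblast markers, at 5232 and 5264 CPM, and a subcluster of 113 of them was led by Lum and Dcn. In endothelial-like cells the fibroblast markers stood at 1138 and 1003 CPM.

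Fibroblast-like cells had the highest level of the 38 genes among the 8 classes of at least 100 cells per library. Summed over the members, it was 1415 CPM (1396 to 1435) in the control library and 1230 CPM (1213 to 1248) in the knockout-labelled library, in 1324 and 1496 cells. Neutrophil-like cells, which are mature and no longer divide, were the lowest of the 8, at 180 CPM (163 to 198) and 181 CPM (165 to 199). The fibroblast-like level was thus 7.87-fold (7.15 to 8.68) and 6.78-fold (6.18 to 7.46) that of the neutrophil-like cells. The classes between these ends formed a narrow band, with 1 exception. T cells and natural killer cells, counted together with a small thymocyte-like cluster, stood at 986 CPM (903 to 1074) and 1098 CPM (1023 to 1178). Dendritic-like cells had 678 and 520 CPM, endothelial-like cells 628 and 624 CPM, and B cell-like cells 619 and 582 CPM. Smooth muscle-like cells had 513 and 500 CPM and monocyte/macrophage-like cells 450 in each library. The intervals of the endothelial-like (603 to 652) and B cell-like (542 to 703) control levels overlapped, so that neighbouring pair had no order beyond counting error. Fibroblast-like cells were 20.8% and 20.7% of kept cells and held 57.0% and 52.7% of all member UMIs, beside 33.2% and 31.4% of all UMIs.

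**Figure D1:**
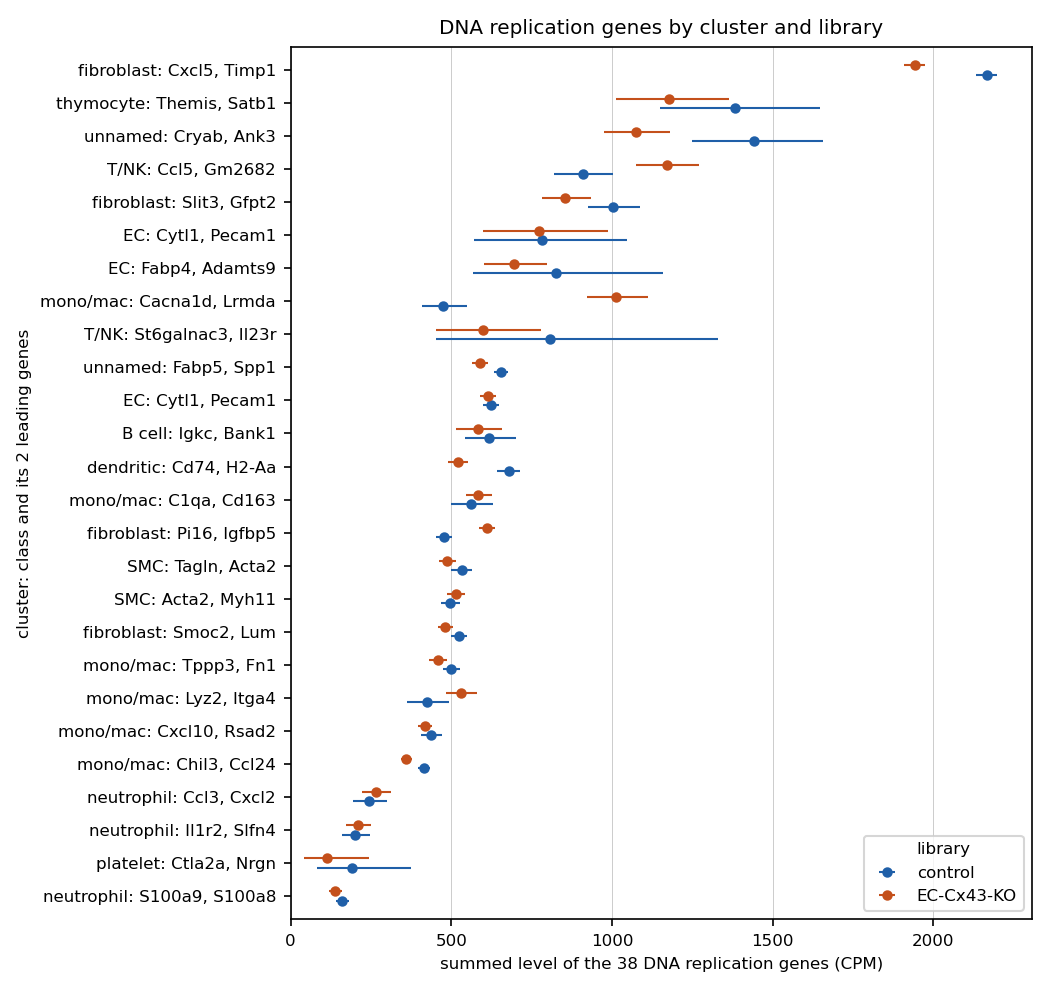
Summed level of the 38 DNA replication genes in CPM (x axis) in each of the 26 clusters (y axis, class and leading genes), with 1 point per library and its exact 95% Poisson interval. The Cxcl5-led fibroblast cluster lies at 2167 and 1942 CPM, to the right of all other clusters, and the platelet-like and neutrophil-like clusters lie at the left end.

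Free RNA from broken cells enters every droplet and adds to every level. The free RNA was estimated at a median of 5.92% of the UMIs of a group in the control and 5.39% in the knockout-labelled library, and its profile held the members at 796 and 715 CPM. The estimates behind these medians ran from 0.884% to 46.5%, and those made in neutrophil-like cells from 7.97% to 12.3% in the control and from 6.66% to 10.0% in the other library. With the median share of a library subtracted from every class alike, the log2 ratio of fibroblast-like over neutrophil-like cells went from 2.98 to 3.33 in the control and from 2.76 to 3.05 in the other library. The bare presence of a member's UMI in a class was therefore not read as expression.

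Among the 8 classes, fibroblast-like cells also led when single cells were counted. Each cell of at least 1000 UMIs was thinned to 1000 UMIs, and a cell with UMIs of at least 4 different members was placed in a replication-high range. This is a range of a count and not a cell type. Among fibroblast-like cells 86 of 1225 (7.02%, 5.65 to 8.6) were in it in the control and 70 of 1396 (5.01%, 3.93 to 6.29) in the knockout-labelled library. They made up 84.3% and 77.8% of the 102 and 90 cells in the range, while they were 21.5% and 21.6% of the cells deep enough to enter. A small, shallow cluster without a class name, led by Cryab, Ank3 and Stard13, held 3 and 9 of the cells in the range (2.94% and 10%). It was 0.474% and 1.38% of the cells deep enough, so a larger share of its cells was in the range than of fibroblast-like cells. Endothelial-like cells gave 2 of 424 and 1 of 518, and smooth muscle-like cells 0 of 384 and 0 of 538, which allow shares of up to 0.781% and 0.558% by 3 counts of the total, a limit that is not the exact interval. No neutrophil-like cell reached the range, in 813 and 908 cells, which allows up to 0.369% and 0.330% by the same limit. Monocyte/macrophage-like cells gave 1 of 1584 and 4 of 1949, and T/NK-like cells 3 of 119 and 4 of 172. Before thinning, at unequal depths, 47.3% and 43.4% of fibroblast-like, 44.4% and 44.6% of smooth muscle-like and 40.0% and 36.6% of endothelial-like cells had 4 members, at median depths of 7488 and 7034, 8673 and 8720, and 6324 and 5935 UMIs. The cut falls on a slope. In the Cxcl5-led fibroblast cluster of the control, 73 cells had exactly 2 members, 41 had 3, 28 had 4 and 19 had 5.

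**Figure D2:**
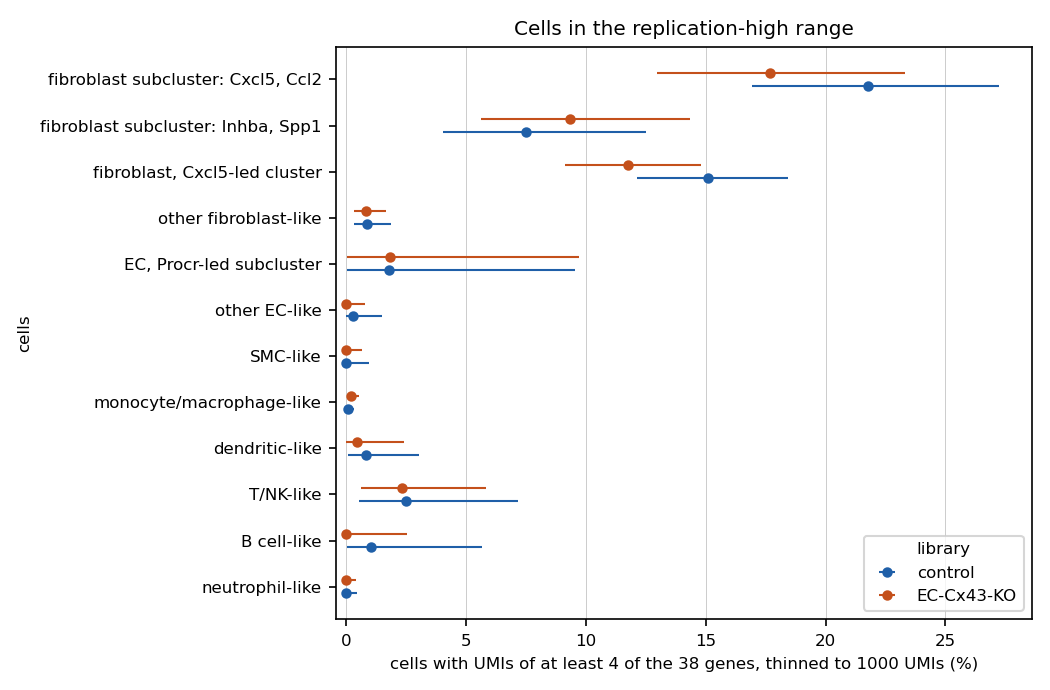
Share of cells with UMIs of at least 4 of the 38 genes after thinning to 1000 UMIs (x axis, percent), by class, cluster or subcluster (y axis), with 1 point per library and its exact 95% binomial interval. The Cxcl5 and Ccl2-led fibroblast subcluster lies highest, at 21.8% and 17.7%, with the whole Cxcl5-led cluster at 15.1% and 11.8%, while other fibroblast-like cells, endothelial-like and smooth muscle-like cells lie near 0. Clusters without a class name are not shown.

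Member by member, 29 of the 38 genes were at least 2-fold higher in fibroblast-like cells than in all other kept cells of the same library, in both libraries. Of the 15746 genes tested 15% were. The median member was higher by 1.90 on the log2 scale in the control and by 1.83 in the other library, against -0.04 and -0.06 over all genes. These classes were built from the same cells, so the counts describe where the members are and carry no test. All 10 licensing and helicase genes were among the 29, as were all 3 nucleotide supply genes, 5 of 7 fork synthesis genes, 4 of 7 histone and chromatin genes, 6 of 9 fork protection genes and 1 of 2 G1/S regulators. Among genes outside the members, 29 of 49 further replication genes and 27 of 35 mitosis genes passed the same rule, with 5 of 13 G1 genes and 1 of 13 cell cycle inhibitors.

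The MCM helicase genes were 3.02-fold to 8.19-fold higher in fibroblast-like than in all other kept cells. Mcm5 had 49.6 CPM in fibroblast-like cells of the control and 39.6 in the knockout-labelled library, 12.8 and 10.7 in endothelial-like, 3.47 and 2.46 in smooth muscle-like, and 1.26 and 0.797 in neutrophil-like cells. Mcm7 had 63.4 and 52.2 CPM in fibroblast-like cells, 14.8 and 16.0 in endothelial-like, 8.43 and 8.52 in smooth muscle-like and 3.29 and 3.48 in monocyte/macrophage-like cells. Mcm2, Mcm3 and Mcm4 followed the same order of the vessel wall classes, at 50.3 and 37.7, 53.2 and 45.3, and 50.05 and 49.6 CPM in fibroblast-like cells, against 18.8 and 14.0, 21.5 and 17.1, and 12.8 and 11.9 in endothelial-like cells. Mcm6 differed, since T/NK-like cells (61.9 and 58.4 CPM) were level with fibroblast-like cells (65.0 and 56.5), and smooth muscle-like cells had 33.9 and 36.7. T/NK-like cells had 24.4 and 16.7 CPM of Mcm2, 22.5 and 25 of Mcm3, 33.7 and 44.5 of Mcm4, 13.1 and 19.5 of Mcm5 and 39.4 and 33.4 of Mcm7. Dendritic-like cells had 15.3 and 10.4 CPM of Mcm2, 28.1 and 21.3 of Mcm3, 17.3 and 15 of Mcm5 and 18.8 and 16.8 of Mcm6. In monocyte/macrophage-like cells Mcm2, Mcm4, Mcm5 and Mcm6 were between 4.55 (Mcm5, control) and 10.4 CPM (Mcm6, knockout-labelled), with Mcm3 at 13.7 and 12.8. Mcm7 lies over the microRNA genes of its own strand and beside genes of the opposite strand, so its counts may include them.

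Pcna, the sliding clamp, had a smaller fold than the MCM genes. It stood at 185 and 152 CPM in fibroblast-like, 151 and 84.0 in dendritic-like, 122 and 103 in monocyte/macrophage-like, 97.5 and 101 in T/NK-like, 86.2 and 86.0 in endothelial-like, 64.4 and 70.2 in smooth muscle-like, 55.1 and 47.8 in B cell-like and 32.4 and 28.7 in neutrophil-like cells. Its fold over all other cells in the fibroblast-like class was 1.54 in each library, below the 2-fold rule. The other members outside the rule were Rfc2 (1.73 and 1.85), Nasp (1.67 and 1.54), Slbp (1.22 and 1.06), Casp8ap2 (1.20 and 1.10), Usp1 (1.93 and 1.90), Blm (1.58 and 1.52), Wdr76 (2.04 and 1.51) and E2f8 (2.65 and 1.74). Slbp binds histone mRNA and Nasp carries histones, and both were measured in every class. Slbp ranged from 35 and 38.3 CPM in neutrophil-like to 86.2 in T/NK-like cells of each library. The members with the highest folds were Uhrf1, which recruits maintenance DNA methylation to the fork (14.1 and 10.1), Exo1, an exonuclease of mismatch repair (11.5 and 11.6), Dtl, which marks licensing factors for destruction in S phase (10.4 and 13.2), and Hells, a chromatin remodeller (9.62 and 7.78).

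**Figure D3:**
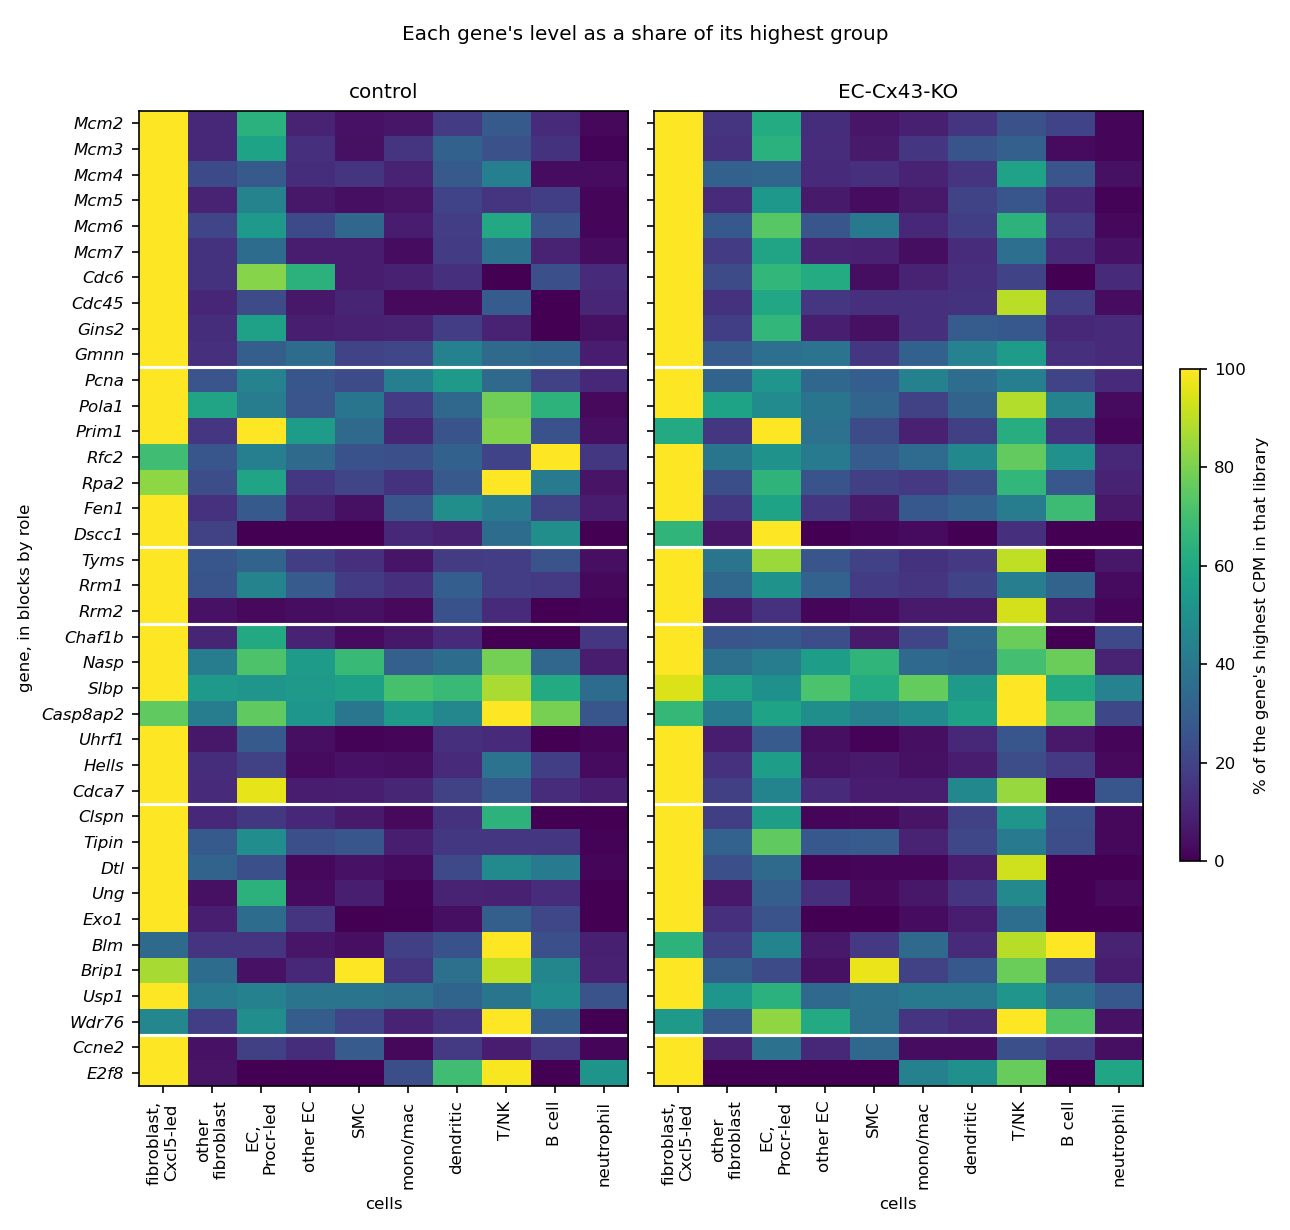
Level of each of the 38 genes (rows, in blocks by role) in 10 groups of cells (columns), as a percentage of the gene's own highest CPM in that library, with the control at the left and the knockout-labelled library at the right. The Cxcl5-led fibroblast column is the brightest for most genes. Blm and Wdr76 peak in lymphocytes in each library, and Prim1 in the Procr-led endothelial subcluster.

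Within the fibroblast-like class the members were concentrated in 1 cluster at the main settings, which most other clusterings divided. The cluster led by Cxcl5, a neutrophil chemokine, Timp1, a metalloproteinase inhibitor, Pdgfra and Ptx3 held 574 and 595 cells and reached 2167 CPM (2134 to 2200) in the control library and 1942 CPM (1910 to 1975) in the knockout-labelled library. The other fibroblast-like cells had 547 CPM (529 to 565) and 572 CPM (555 to 589), a ratio of 3.96 (3.82 to 4.11) and 3.40 (3.28 to 3.51). Of the Cxcl5-led cells 80 of 530 (15.1%, 12.1 to 18.4) and 63 of 536 (11.8%, 9.15 to 14.8) were in the replication-high range, against 6 of 695 and 7 of 860 of the other fibroblast-like cells. The cluster was 9.0% and 8.22% of all kept cells, took 17.8% and 15.1% of all UMIs and held 46.8% and 40.0% of the member UMIs. For single members that share ran from 25.1% (Casp8ap2) to 82.9% (Uhrf1) in the control and from 19.7% (Slbp) to 75.9% (Uhrf1) in the other library. Its cells were also deeper, with medians of 9000 and 7897 UMIs against 6825 and 6381. The cells had not been grouped by the members, but genes that move with them took part in the clustering.

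The edge of this cluster moved with the clustering settings, and the ratio moved with it. At a clustering resolution of 0.5 the cluster was found again with 1163 of its 1169 cells, at 2170 and 1935 CPM. Under the other clusterings run, it was split, most often into a part led by Tnfrsf11b, Inhba and Timp1 and a part led by Ptx3. The first part held 2464 and 2114 CPM and the second 1396 and 1319 CPM when a broader list of cell cycle genes was left out of the clustering. In that run 257 of the cells joined a cluster led by Mmp3 and Lum, which then had 722 and 522 CPM. The log2 ratio of the best matching cluster over other fibroblast-like cells fell from 1.99 and 1.76 to between -0.04 and 1.09 in the control and between 0.20 and 1.19 in the other library under the clusterings that split it. The fibroblast clusters led by Smoc2 and Lum or by Pi16 held 477 to 612 CPM and had 1 and 1, and 0 and 1, cells in the range. The member folds that follow describe the undivided cluster.

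Compared with other fibroblast-like cells, 33 of 38 members were at least 2-fold higher in the Cxcl5-led cluster in both libraries, a rule that 8.85% of the 12492 genes tested met, and none was at least 2-fold lower, where 9.51% of genes were. All 10 licensing and helicase genes met it, with folds from 4.47 to 10.2 in the control and from 3.24 to 8.18 in the other library. Mcm5 was at 85.3 CPM there against 8.37 outside in the control, and at 72.9 against 8.90 in the knockout-labelled library. Mcm3 was at 90.5 and 81.7 CPM against 10.0 and 11.6. Mcm2 was at 85.5 and 67.6 CPM against 9.71 and 10.1, Mcm7 at 105 and 91.6 against 15.4 and 15.7, and Mcm6 at 103 and 90.6 against 21.5 and 25. Mcm4 had the smallest fold of the role, at 78.2 and 77.3 CPM against 17.5 and 23.9. Each MCM gene was thus higher in the cluster in each library, with the order of the folds led by Mcm5.

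Of the fork synthesis genes 6 of 7 met the rule. Pcna was at 281 and 235 CPM against 73.8 and 75.6 in other fibroblast-like cells. Pola1, the catalytic subunit of polymerase alpha, was the exception, at 93.5 and 86.5 CPM against 54.7 and 50.1. All 3 nucleotide supply genes met it, led by Rrm2, the cell cycle regulated subunit of ribonucleotide reductase, at 45.3 and 31.3 CPM against 2.24 and 2.06 (20.2-fold and 15.1-fold). Its partner Rrm1 was at 92.8 and 78.2 CPM against 24.2 and 26.5, and Tyms, which makes thymidylate, at 30.9 and 24.6 against 8.22 and 9.42. Rrm2 thus had the larger fold of the 2 reductase subunits in each library.

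Of the histone and chromatin genes 5 of 7 met it. Uhrf1 was at 77.1 and 67.3 CPM against 4.93 and 5.16 (15.6-fold and 13-fold), and Hells at 113 and 106 against 14.9 and 15.1. Slbp (1.85 and 1.64-fold) and Casp8ap2 (1.79 and 1.60-fold) did not. Of the fork protection, checkpoint and repair genes 7 of 9 met it. Ung, a uracil-DNA glycosylase, was at 20.4 and 14.8 CPM against 0.897 and 1.03 (22.8-fold and 14.3-fold) and Exo1 at 12.4 and 11.6 against 1.05 and 1.55. Usp1 (2.42 and 1.90) and Wdr76 (2.50 and 1.89) passed 2-fold in the control only, a difference between libraries that was not tested. Both G1/S regulators met it. Ccne2, a cyclin that starts S phase, was at 46.4 and 39.8 CPM against 2.24 and 3.61. E2f8, a repressor that closes the E2F program, had 44 and 39 UMIs in the cluster against 2 and 0 in the other fibroblast-like cells; with so few UMIs outside the cluster no fold is given.

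Other cell cycle genes in the Cxcl5-led cluster moved in the same direction, except the inhibitors. Of the further replication genes 34 of 49 and of the mitosis genes 32 of 34 tested were at least 2-fold higher, with Top2a, which untangles chromosomes, at 13.8-fold and 16.6-fold. Dut, which clears dUTP, was at 3.93-fold and 3.17-fold, and Dnmt1, the maintenance DNA methyltransferase, at 3.36-fold and 3.38-fold. Of the G1 genes 7 of 12 were higher, with Cdk4 at 2.75-fold and 2.37-fold. Of 12 inhibitors 1 was higher and 3 were lower: Btg2, Cdkn1b and Cdkn1c. Btg2, an antiproliferative gene, was at 0.36-fold and 0.39-fold, and Cdkn1a at 0.65-fold and 0.59-fold.

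Subclusters of the fibroblast-like cells split members from mitosis genes. A subcluster led by Cxcl5, Ccl2, H2afz and Top2a, with Pcna itself among its leading genes, had 2585 and 2498 CPM of the members, 820 and 841 CPM of the 35 mitosis genes and 57 of 262 and 40 of 226 cells in the range. A subcluster led by Inhba, Spp1 and Tnfrsf11b had 1643 and 1360 CPM of the members but 168 and 118 CPM of the mitosis genes, with 13 of 173 and 18 of 193 cells in the range. Its member level was 3.00-fold (2.88 to 3.14) and 2.38-fold (2.27 to 2.49) that of the fibroblast-like cells outside the Cxcl5-led cluster. A smaller cluster led by Slit3, Gfpt2 and Sdk1 had 1004 and 855 CPM, with 5 of 123 and 5 of 139 cells in the range.

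In the Cxcl5-led cluster, cells in the replication-high range also differed in genes outside the rule of the range. Further replication genes stood at 3258 CPM in the 80 cells in the range against 1117 in the 450 cells below it in the control, and at 3181 against 1158 in the knockout-labelled library. Mitosis genes stood at 1522 against 233 CPM and at 1493 against 285. The inhibitors stood at 610 against 785 and at 592 against 749 CPM. The cells in the range were deeper before thinning, with median UMIs of 18736 against 9935 and 17177 against 8509, and the part of depth in these differences was not tested.

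**Figure D4:**
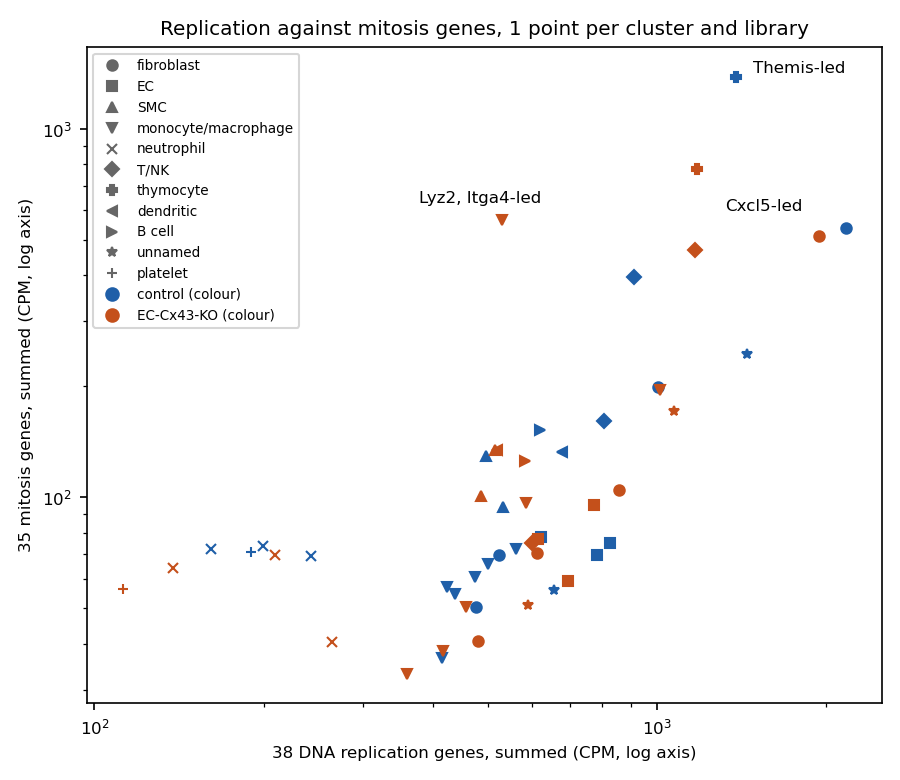
Summed level of the 35 mitosis genes (y axis, CPM) against that of the 38 DNA replication genes (x axis, CPM), both on log axes, with 1 point per cluster and library; the marker gives the class and the colour the library. The Cxcl5-led fibroblasts lie farthest right at 537 and 510 CPM of mitosis genes, the Themis-led cluster lies highest in the control, and the Lyz2 and Itga4-led cluster of the knockout-labelled library lies well above the other monocyte/macrophage-like clusters.

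In endothelial-like cells, the injured layer, the members stood at 628 CPM (603 to 652) in the control library and 624 CPM (600 to 648) in the knockout-labelled library, 3.49-fold (3.15 to 3.88) and 3.44-fold (3.11 to 3.81) the neutrophil-like level. Cdc6, which loads the MCM helicase, was the 1 member at least 2-fold higher than in all other cells in both libraries, where 12.8% of genes were, and 7 members were at least 2-fold lower, where 17.7% were. Cdc6 was at 14.6 and 12.6 CPM in endothelial-like and 12.9 and 12.1 CPM in fibroblast-like cells, with 1.73 and 0.757 CPM in smooth muscle-like cells. Prim1, the primase subunit, was at 13.6 and 14.8 CPM against 12.6 and 11.8 in fibroblast-like cells. Nasp stood at 70.1 and 63.1 CPM and Wdr76 at 12.1 and 16.2 CPM. The mitosis genes were at 78 and 76 CPM, near the 72 and 60 CPM of neutrophil-like cells.

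A small endothelial subcluster carried more of the licensing genes. It was led by Procr, the endothelial protein C receptor, Ccnd1, a G1 cyclin, and Hbegf, a growth factor, and had 56 and 55 cells. The members stood at 1000 CPM (936 to 1067) and 1078 CPM (1001 to 1160) there against 519 CPM (494 to 545) and 537 CPM (513 to 562) in other endothelial-like cells, a ratio of 1.93 (1.78 to 2.09) and 2.01 (1.84 to 2.19). Of the 24 members with enough UMIs to be tested 10 were at least 2-fold higher in both libraries, against 4.13% of the 10166 genes tested. They were Mcm2, Mcm3, Mcm4, Mcm5, Mcm6, Mcm7, Rpa2, Uhrf1, Hells and Tipin. Mcm5 was 7.05-fold and 7.19-fold higher, Mcm2 6.59-fold and 4.75-fold, Mcm7 4.48-fold and 6.10-fold and Mcm3 4.22-fold and 4.97-fold. Hells was at 21.9 and 59.6 CPM (6.85-fold and 10.0-fold) and Uhrf1 at 21.9 and 19.4 CPM (6.85-fold and 6.83-fold). Rpa2 was 3.64-fold and 2.51-fold and Tipin 2.01-fold and 2.75-fold higher. Pcna (1.66 and 1.54-fold), Cdc6 (1.27 and 1.07-fold), Rrm1 (1.55 and 1.63-fold) and Gmnn, which blocks renewed licensing (0.86 and 0.96-fold), did not meet the rule. Pola1 was at 39.3 and 41.7 CPM. Only 1 of 56 and 1 of 55 of these cells were in the replication-high range, and 10.7% and 5.45% had 3 members or more after thinning. The subcluster was deep, with medians of 13663 and 10349 UMIs against 5616 and 5490, and was chosen after its leading genes were seen. The mitosis genes stood at 114 and 214 CPM there against 67.0 and 49.9 CPM in other endothelial-like cells, a ratio of 1.70 (1.33 to 2.16) and 4.30 (3.42 to 5.39).

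Smooth muscle-like cells were below the rest of the kept cells, fibroblast-like cells included, for most members. The fibroblast-like cells held 57.0% and 52.7% of all member UMIs. Counts of lower members in this and the other classes were taken against a rest that includes them. Of the 38, 21 were at least 2-fold lower in both libraries, where 19.4% of all genes were, and 8 of these were licensing and helicase genes. The 1 member that was higher, where 12.3% of genes were, was Brip1, a helicase of DNA crosslink repair, at 22.8 and 19.1 CPM against 14.3 and 12.5 in fibroblast-like cells. Brip1 overlaps the pseudogene Atp5l-ps2 on the opposite strand. Nasp was at 80.3 and 76.9 CPM, Ccne2 at 13.4 and 13.3 and Wdr76 at 7.43 and 9.28. Uhrf1 was at 0.743 and 0.568 CPM in this class against 43.6 and 35 in fibroblast-like cells. Mitosis genes were at 113 and 116 CPM.

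Of the blood-derived classes, T/NK-like cells came nearest to the fibroblast-like level, with few cells (143 and 201). Of the members 6 were at least 2-fold higher than in other cells in both libraries, where 14.4% of genes were, and none was at least 2-fold lower in both, where 15.6% were. Counts under 3 in a group were set to 3. With so few cells, a member with a low level elsewhere could thus not be called lower. Of the mitosis genes 18 of 35 were at least 2-fold higher, and they stood at 555 and 484 CPM. Pola1 was at 73.1 and 76.5 CPM, Casp8ap2 at 69.3 and 66.7, Nasp at 93.7 and 82.0 and Slbp at 86.2 in each library. A thymocyte-like cluster led by Themis and Satb1, of 45 and 58 shallow cells, was counted within this class and had 1383 and 1179 CPM of the members. Without it the class stood at 905 and 1077 CPM.

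Monocyte/macrophage-like cells, the largest class with 1697 and 2063 cells, had no member at least 2-fold higher, where 7.33% of genes were. Of the 38 members 27 were at least 2-fold lower than in other cells, where 30.2% of genes were lower. These other cells again include the fibroblast-like cells. Slbp was at 70.0 and 65.9 CPM, Casp8ap2 at 37.3 and 32.2, Usp1 at 33.7 and 37.7 and Blm at 8.23 and 10.3. A cluster of this class led by Lyz2 and Itga4 (55 and 123 cells) had 423 and 530 CPM of the members and 56.9 and 567 CPM of the mitosis genes, with 0 cells in the range in each library. The summed mitosis genes of the class were at 50.2 and 87.4 CPM while the members did not differ (450 in each). Of the 518 and 1130 mitosis UMIs of the class, 23 and 516 lay in the Lyz2 and Itga4-led cluster. Much of that difference thus lay in this small cluster. Neutrophil-like cells had 32 members at least 2-fold lower, where 46% of genes were, and Usp1 was at 23.6 and 25.5 CPM, Casp8ap2 at 18.5 and 14.4 and Nasp at 9.69 and 11.6 there. Neutrophil-like cells were also shallow, with medians of 1849 and 1653 UMIs.

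Dendritic-like and B cell-like cells stood in between. In dendritic-like cells 2 members were at least 2-fold lower in both libraries, where 18.2% of genes were, and none was higher, where 3.84% were. Gmnn was at 14.3 and 14.5 CPM, Rfc2 at 20.2 and 23.1, Pola1 at 31.1 and 27.7 and Casp8ap2 at 32.1 and 38.1. A subcluster of 17 and 7 cells led by Retnla, Lpl and Mmp12 had 2129 CPM (1916 to 2358) and 1690 CPM (1424 to 1991), with 2 of 17 and 1 of 7 cells in the range. In B cell-like cells none of the members was higher, where 11.5% of genes were, and 2 were lower, where 15.5% were. The members held only 236 and 256 UMIs in these cells, and counts under 3 in a group were set to 3. A member rare in these cells could thus not be called higher. One with a low level elsewhere could not be called lower. Casp8ap2 was at 55.1 and 50.1 CPM and Slbp at 60.3 and 52.3 CPM there, each from few UMIs.

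Between the libraries, the summed level in fibroblast-like cells was lower in the knockout-labelled one, by a log2 ratio of -0.20 (-0.23 to -0.17), with the median of all genes at -0.09. Of the 38 members 31 had a ratio below 0, and for 21 the interval lay below 0 and for none above. Of all genes tested in this class 63.4% had a ratio below 0, and the interval lay below 0 for 24.1% and above 0 for 11.1%. Among genes whose UMIs lay within the members' range these shares were 66.9%, 26.3% and 9.73%. Past 1.5-fold, none was higher, where 5.31% of the 14328 genes tested were, and 2 were lower, where 6.18% were: Cdc45, which completes the active helicase, at 11.3 and 6.91 CPM (-0.71, -1.08 to -0.35) and Rrm2 at 25.3 and 16.1 CPM (-0.65, -0.89 to -0.41). With 2 of 38 against that background the members' share past the fold was near that of all genes. The shares of cells in the range had overlapping intervals. Scaling by the median of gene ratios in place of total UMIs brought the summed log2 ratio to -0.12. Mitosis genes were lower as well, at 322 and 276 CPM.

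In the Cxcl5-led cluster the ratio was -0.16 (-0.19 to -0.13), again with 31 of 38 members below 0, and with 14 intervals below 0 and none above. Of all genes tested in this cluster 62.7% had a ratio below 0, and the interval lay below 0 for 19.1% and above 0 for 9.36%. Past 1.5-fold, none was higher, where 5.3% of genes were, and 2 were lower, where 7.06% were: Cdc45, with 149 and 89 UMIs (-0.63), and Chaf1b, a histone chaperone subunit, with 125 and 77 UMIs (-0.59). Pcna was at -0.26, Mcm2 at -0.34, Rrm2 at -0.53, Mcm4 at -0.02 and Hells at -0.09. The ratio was -0.05 in the Cxcl5 and Ccl2-led subcluster and -0.27 in the Inhba-led one. Both pools held female and male cells, in different numbers. Among Cxcl5-led cells with Xist and no Y-linked UMI the members stood at 1952 CPM in the control and 1668 in the knockout-labelled library, and among cells with Y-linked and no Xist UMI at 2583 and 2371, with 311 and 235, and 109 and 171 cells. Cells with both kinds of UMI (18 and 17 cells) had 3098 and 2086 CPM, and cells with neither (136 and 172 cells) 1539 and 1171 CPM. The level was lower in the knockout-labelled library within each of these groups. Detection of such UMIs depends on depth and free RNA, and the part of the sex mix in the ratio was not tested. In the other fibroblast-like cells the ratio was 0.06 (0.00 to 0.13), with 5 of 34 members past 1.5-fold higher, where 4.61% of genes were, among them Gmnn at 4.33 and 9.42 CPM (1.12), and none lower, where 6.76% were.

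**Figure D5:**
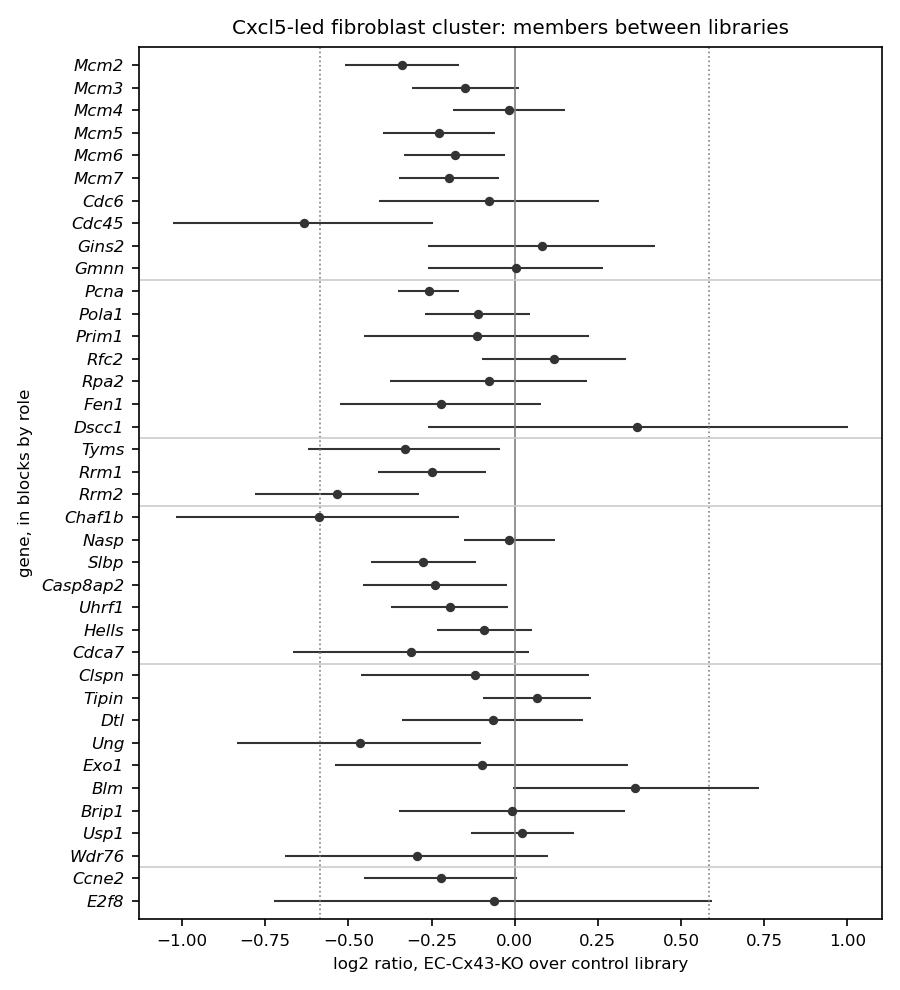
Log2 ratio of the knockout-labelled over the control library (x axis) for each of the 38 genes (y axis, in blocks by role) in the Cxcl5-led fibroblast cluster, with exact 95% intervals for counting error; dotted lines mark 1.5-fold. Of the points 31 lie below 0, where 62.7% of all genes tested did, and Cdc45 and Chaf1b lie past the dotted line.

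In endothelial-like cells, the class in which the labels place the knockout, the summed log2 ratio was -0.01 (-0.09 to 0.07). Of 31 members tested 1 was past 1.5-fold higher, where 5.2% of genes were, and 1 lower, where 5.87% were. The higher one was Hells, at 7.41 and 14.5 CPM from 30 and 61 UMIs (0.97, 0.32 to 1.65). In the Procr-led subcluster the ratio was 0.11 (-0.03 to 0.25), with 4 of 23 members past 1.5-fold higher, where 6.81% of genes were, and 2 lower, where 13.3% were. Hells was at 21.9 and 59.6 CPM (1.45) there, from 20 and 40 UMIs. The lowest ratio among the members tested was that of Cdca7, with 18 and 5 UMIs at 19.7 and 7.44 CPM (-1.40, -3.19 to 0.08), which is named for that value. Nasp was at 85.3 and 49.1 CPM (-0.79) and Tipin at 40.4 and 65.5 CPM (0.70) in the same cells. The Gja1 values above bear on any direction read from the label.

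The remaining classes gave ratios of -0.04 (-0.12 to 0.04) in smooth muscle-like, 0.00 (-0.05 to 0.06) in monocyte/macrophage-like, 0.01 (-0.18 to 0.21) in neutrophil-like, -0.09 (-0.35 to 0.17) in B cell-like and 0.16 (-0.01 to 0.32) in T/NK-like cells. Dendritic-like cells were lower in the knockout-labelled library, at -0.38 (-0.50 to -0.27), with 10 of 27 members past 1.5-fold lower, where 12.5% of genes were, and 2 higher, where 6.21% were. Pcna was at 151 and 84.0 CPM (-0.84), Rrm1 at 27.6 and 15.9 (-0.80), Mcm4 at 22.2 and 11.8 (-0.91), Rrm2 at 11.4 and 2.27 (-2.32) and Blm at 10.9 and 3.63 (-1.58). Outside the Retnla-led subcluster, of which the control had 17 cells and the other library 7, the ratio was -0.20 (-0.33 to -0.07), with the median of all genes in the class at -0.12. In monocyte/macrophage-like cells 7 of 33 members were past 1.5-fold higher, where 9.12% of genes were, and 1 lower, where 3.96% were. Cdc45 had 5 and 22 UMIs, Tyms 18 and 46, Chaf1b 11 and 29 and Uhrf1 15 and 36 in this class. The mitosis genes there had a ratio of 0.80. Of their 518 and 1130 UMIs, 23 and 516 lay in the Lyz2 and Itga4-led cluster. In T/NK-like cells 5 of 23 members were past 1.5-fold higher, where 10.9% of genes were, and 3 lower, where 12% were, and Rrm2 (3 and 21 UMIs), Rfc2 (7 and 27) and Tipin (7 and 26) had intervals above 0. Among smooth muscle-like cells 1 of 24 members was higher, where 5.52% of genes were, namely Blm with 7 and 26 UMIs (1.5), and none was lower, where 4.5% were. Few members could be tested in the last 2 classes. In B cell-like cells 1 of 7 was higher, where 11% of genes were, and 2 lower, where 13.5% were, with Nasp at 15 and 40 UMIs (1.21) and Rfc2 at 25 and 11 (-1.39). In neutrophil-like cells none of 6 was higher, where 8.64% of genes were, and 1 was lower, where 10.6% were.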

How the data were processed

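The deposited files are UMI counts per gene and cell from 10x Genomics 3′ libraries, made by the authors with Cell Ranger 8.0.1, per the file headers; the submitters' processing notes name STAR and mm10. The counts are raw and were not normalized by the authors. Cells under 300 genes or over 15% mitochondrial UMIs were dropped, and 363 and 476 likely doublets were removed by their closeness to simulated doublets, at an assumed rate of 0.008 per 1000 cells. Clustering used 2000 variable genes without the listed cell cycle genes and Gja1, 30 principal components, 20 neighbours and Leiden resolution 1 (subclusters 0.6), in Python 3.11.15 with scikit-learn 1.9.0 and leidenalg 0.10.2. A cluster was named, as a like-type, from at least 3 markers each seen in 5% of its cells; 849 and 626 cells stayed unnamed. That naming rule, the joining of the thymocyte-like cluster to T/NK, and the Cxcl5-led and Procr-led groups were chosen after seeing a clustering. The members and lists were chosen with earlier results of these data known. UMIs were summed per group and library. Ratios have exact conditional binomial intervals, with 3 counts as the floor for a group with fewer than 3. Genes with at least 20 UMIs over the groups compared were tested against the folds of 2 (both libraries) and 1.5 (between libraries). A member was named in a class by the 4 highest folds among those with 20 UMIs in each library, beside the MCM genes and Pcna. With 1 library per group no test, p-value or replicate error exists, and samples of separate animals cannot be told apart. Cells under 1000 UMIs were left out of thinned shares. The ratio and interval code was tested on simulated data. Of the 38 members, 7 overlap another gene on the same strand and 13 one on the opposite strand in GENCODE vM21, so their counts may be shared. Alternatives covered filters, doublets, resolution, the clustering genes, thinning depth, the range, scaling, free RNA and the choice of members.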

Additional observations from a re-analysis of the deposited data

Results flagged for a closer look

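The summed log2 ratio of the knockout-labelled over the control library was -0.16 in the Cxcl5-led cluster and 0.064 (0.00095 to 0.13) in the other fibroblast-like cells, so the values lay on opposite sides of 0; with 1 library each, the difference between these ratios was not tested. The other fibroblast-like clusters did not share 1 direction: the members stood at 525 and 480 CPM in the Smoc2-led cluster, control first, at 1004 and 855 CPM in the Slit3-led one and at 477 and 612 CPM in the Pi16-led one.

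Cells in the replication-high range were also found in clusters that were given no class name. The cluster led by Fabp5, Spp1 and Pf4 had 4 such cells among 770 in the control (0.52%, 0.14 to 1.32) and 1 among 490 in the knockout-labelled library (0.20%), and the cluster led by Cryab, Ank3 and Stard13 had 9 among 89 in the knockout-labelled library (10.1%, 4.73 to 18.3) and 3 among 27 in the control (11.1%, 2.35 to 29.2). In the latter the members stood at 1443 and 1074 CPM in the 2 libraries, at median depths of 814 and 1506 UMIs per cell. The best-scoring marker list of that cluster was the Schwann cell list, with all 5 markers detected. It stayed unnamed because it was shallow and had 0 of these markers among its leading genes.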

How the results depend on the processing

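No paired analysis was possible because each group has 1 library and the labels give no replicate numbers. Values are log2 ratios unless a percentage, given for the control and then the knockout-labelled library. The fibroblast-like over neutrophil-like level (2.98 and 2.76) was 2.42 and 2.11 as a mean of single-cell CPM, 3.33 and 3.05 with free RNA subtracted, 4.32 and 3.89 over the 10 licensing and helicase members and 2.49 and 2.32 with at least 500 genes per cell, where a Tnfrsf11b-led cluster left the class under a platelet-like name. The endothelial-like over neutrophil-like level (1.80 and 1.78) was 1.63 and 1.55, 2.10 and 2.02, 2.88 and 2.57, and 1.63 and 1.62 under the same settings. Fibroblast-like cells in the range (7.02% and 5.01%) were 2.04% and 1.07% at 500 UMIs, 14.3% and 11.2% at 2000 UMIs, 11.7% and 7.74% at 3 members, 4.33% and 3.01% at 5 members and 4.27% and 3.32% at 500 genes. Endothelial-like cells (0.47% and 0.19%) were 2.30% and 3.18% at 2000 UMIs and 3.07% and 2.51% at 3 members, and 0.00% in the knockout-labelled library at 5 members. Without the gene with the most UMIs in each of the 2 lists, the members over mitosis genes in fibroblast-like cells of that library were 2.24 (main value 2.16).

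The best matching Cxcl5-led cluster over other fibroblast-like cells (1.99 and 1.76) was 1.69 and 1.44 as a mean of single-cell CPM, 2.08 and 1.84 with free RNA subtracted, 2.76 and 2.30 over the licensing members, 0.85 and 1.19 at 500 genes, 1.02 and 0.86 at a mitochondrial limit of 25%, 1.09 and 0.99 with doublets kept, 0.77 and 1.07 at resolution 2.0, 0.71 and 0.76 with cell cycle genes among the clustering genes, and -0.042 and 0.20 with the broader list left out. Taking instead the cluster highest in Cxcl5 and Timp1, it was 1.12 and 1.10 at 500 genes, 1.02 and 0.86 at the 25% limit, 1.09 and 0.99 with doublets kept, 0.36 and -0.48 at resolution 2.0, 1.13 and 1.08 with cell cycle genes clustered and 1.12 and 1.03 with the broader list left out. In these changed clusterings the cells of the cluster were divided among several clusters; the cause of the other moves was not tested. Leaving out the broader list and the match by Cxcl5 and Timp1 were chosen after seeing the data, as were the subclustering resolutions of 0.3 and 1.0, under which the Procr-led ratio kept within its error.

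Between the libraries, the fibroblast-like ratio (-0.20) was -0.12 with median of ratios scaling, -0.15 at 500 genes and -0.17 with doublets kept. The endothelial-like ratio (-0.01) was -0.11 over the licensing members. The Cxcl5-led ratio (-0.16) was -0.25 as a mean of single-cell CPM, -0.090 at 500 genes, -0.28 at the 25% limit, -0.21 with doublets kept, -0.010 at resolution 2.0 and -0.081 with the broader list left out. Matched by Cxcl5 and Timp1 it was -0.28 at the 25% limit, -0.21 with doublets kept, -0.99 at resolution 2.0, -0.20 with cell cycle genes clustered and -0.22 with the broader list left out. Of the main results under an alternative, 99 stayed within the error of the main value, 75 moved and 2 reversed sign. The 2 reversals were in the Cxcl5-led cluster over other fibroblast-like cells. They were the control with the broader list left out and, matched by Cxcl5 and Timp1, the knockout-labelled library at resolution 2.0. Of the secondary values, 278 stayed the same by this rule and 93 moved, and none of these reversed sign.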

Other observations

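Among 12650 genes outside all lists, those whose level followed the summed members most closely over 25 clusters were Gemin5 (Pearson r of log2 levels 0.902), Nup205 (0.897), Polr1b (0.896), Nop58 (0.895), Atm (0.887), Dph6 (0.881), Taf1d (0.880), Nup85 (0.879), Hspa4 (0.878) and Rbbp4 (0.877). Clusters share libraries and depth, so these values describe the clusters only. Nop58 is a nucleolar protein of ribosome production and Polr1b a subunit of RNA polymerase I, while Nup205 and Nup85 belong to the nuclear pore.

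A shallow monocyte/macrophage-like cluster led by Cacna1d had 475 and 1013 CPM of the members, control first. Without it the log2 ratio of the class between the libraries was -0.06 (-0.12 to -0.0038). A T/NK-like subcluster led by Abcb1b and Ccl4 had 786 and 1890 CPM, a log2 ratio of 1.27 (0.95 to 1.59). The Pi16-led fibroblast cluster had a ratio of 0.36 (0.26 to 0.46).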
